A study of Mus musculus with 6 samples.

Results

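The genes described here are 10 genes of blood clotting and clot removal: the fibrinogen chains Fga, Fgb and Fgg, tissue factor (F3), factor V (F5), von Willebrand factor (Vwf), thrombomodulin (Thbd), the plasminogen activators Plau and Plat, and the urokinase receptor Plaur. They were chosen by symbol, and all 10 were found among the 24422 genes counted. The serpin inhibitors of these enzymes were left out. Poly-A RNA from whole kidneys of C57BL/6 mice was sequenced at postnatal day 13, with 3 Control and 3 TfR1 knockout kidneys, all on an iron sufficient diet with 220 ppm iron. Control kidneys were labelled wild type, and knockout kidneys Tfr1f/f;SixCre. In the knockout, exons 3 and 4 of the transferrin receptor gene were flanked by loxP sites and removed by Six2CreEGFP, which is active in the progenitors of the nephron and not in the ureteric bud, stroma or vessels. The study describes tubule cells that escaped the deletion.

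Clotting starts when blood meets tissue factor, a membrane protein of cells outside the vessel lumen, and a cascade of enzymes with factor V as a cofactor then forms thrombin. Thrombin cuts fibrinogen, which is assembled from alpha, beta and gamma chains and is made chiefly by hepatocytes, into fibrin. Thrombomodulin on endothelium turns thrombin toward the activation of protein C, an anticoagulant, and the urokinase-type (Plau) and tissue-type (Plat) activators turn plasminogen into plasmin, which dissolves fibrin. Tubule cells of the kidney secrete urokinase into the urine.

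Total counts per library ran from 16591156 to 22898008. Counts of the targeted gene, Tfrc, overlapped between groups and did not pass the test (log2 fold change 0.11, SE 0.29, DESeq2 adjusted p 0.853), so they do not check the group labels. Proximal tubule markers summed to 67627 to 135593 normalized counts in Control libraries and to 61648 to 101379 in knockout libraries, and the lowest Control value was in replicate 3. In tissue RNA, fewer cells of a type and less RNA per cell cannot be told apart. The design text calls the samples biological replicates, and p-values here measure the spread between these 6 libraries.

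Of the 10 genes, Fgg, Fga, F3 and Plaur were higher in TfR1 knockout kidneys and Plau was lower, while Fgb, F5, Vwf, Thbd and Plat did not pass the test (DESeq2 Wald test, adjusted p under 0.05). Over all 16509 genes tested, 7.74% were called higher and 7.18% lower. With total-count scaling the calls over all genes were split 996 higher to 1407 lower, against 1277 to 1186 with median-ratio scaling. edgeR's quasi-likelihood test, which was stricter in simulated counts, called 3 of the 10 genes higher (Fgg, F3 and Plaur) and 0 lower, where 3.22% and 2.80% of all genes it tested were called. At an unadjusted p under 0.05 edgeR gave 4 higher and 1 lower. The median log2 fold change was 0.73 over the 10 genes and 0.007 over all genes tested. The libraries of the groups did not overlap for 5 of the 10 genes (50%) and for 33.7% of all genes tested. With so few genes, these shares describe the group and set nothing apart.

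**Figure D1:**
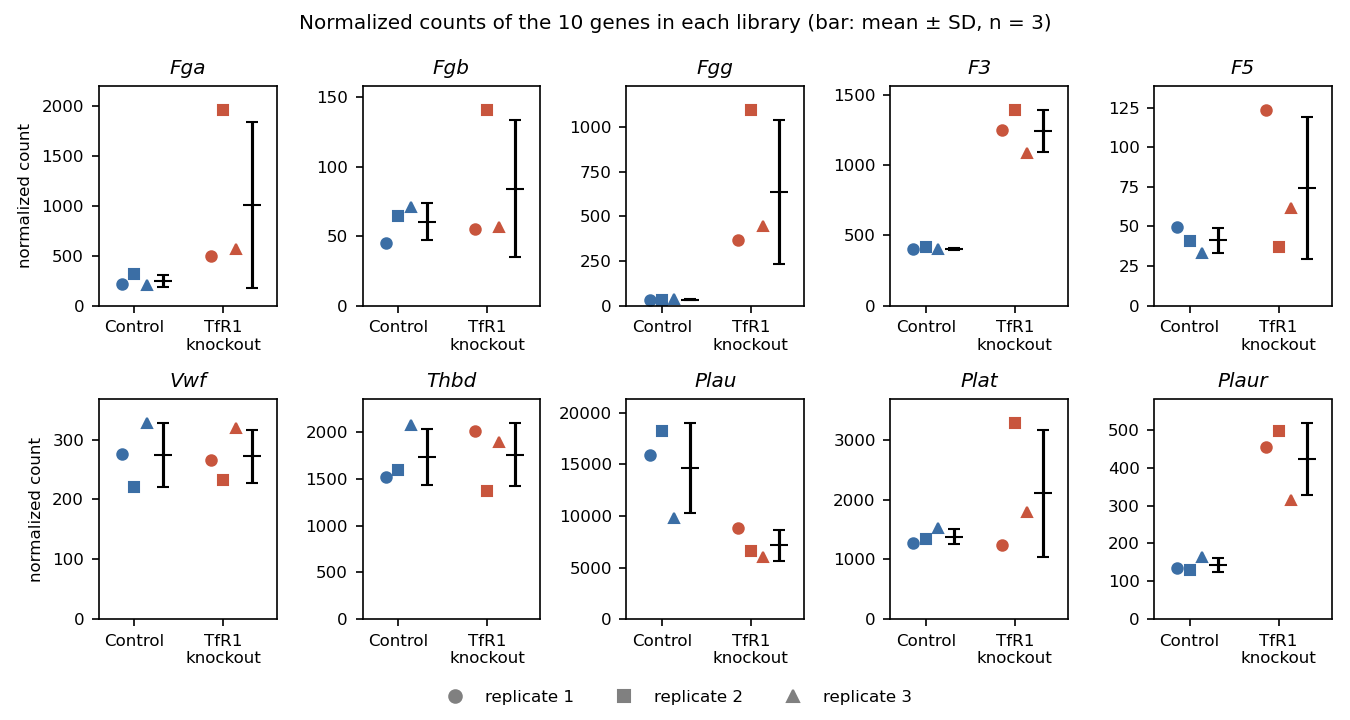
Normalized counts (vertical axes, linear from 0) of the 10 genes in the 3 Control and 3 TfR1 knockout libraries. Points are libraries, with symbols for the replicate number, and bars give the mean ± SD. The groups are separate for Fga, Fgg, F3, Plau and Plaur, and TfR1 knockout replicate 2 is the highest library for all 3 fibrinogen chains.

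The fibrinogen genes lie side by side on chromosome 3 in the order Fgg, Fga, Fgb, within 41.9 kb (mm9, 82811781 to 82853725). Fgg and Fga are on the plus strand and Fgb is on the minus strand. The sequences before their transcription starts are shown because these neighbouring genes gave unequal fold changes. They were taken from RefSeq on GRCm38.p6, whose coordinates differ from mm9, and each holds the 250 bases before the annotated start, 5′ to 3′ on the strand of the gene. The windows are chr3:83025903-83026152 (plus strand) for Fga, chr3:83049864-83050113 (minus strand) for Fgb and chr3:83007474-83007723 (plus strand) for Fgg. Capitals mark matches to motifs searched on both strands.
Fga promoter: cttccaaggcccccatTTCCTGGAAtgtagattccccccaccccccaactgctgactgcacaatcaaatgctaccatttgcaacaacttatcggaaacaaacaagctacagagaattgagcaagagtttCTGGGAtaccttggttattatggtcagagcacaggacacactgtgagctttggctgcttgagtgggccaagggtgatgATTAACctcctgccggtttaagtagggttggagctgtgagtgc
Fgb promoter: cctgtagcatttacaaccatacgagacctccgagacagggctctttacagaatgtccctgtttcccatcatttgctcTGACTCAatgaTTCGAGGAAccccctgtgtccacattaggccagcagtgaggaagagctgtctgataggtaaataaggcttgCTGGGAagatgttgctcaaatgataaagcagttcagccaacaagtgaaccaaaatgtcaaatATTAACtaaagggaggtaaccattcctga
Fgg promoter: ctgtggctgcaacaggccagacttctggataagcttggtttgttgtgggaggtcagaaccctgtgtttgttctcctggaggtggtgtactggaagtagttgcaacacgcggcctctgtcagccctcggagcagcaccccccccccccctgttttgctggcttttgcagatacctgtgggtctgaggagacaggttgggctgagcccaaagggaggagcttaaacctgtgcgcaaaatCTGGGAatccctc

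The motifs were the STAT3 site TTCNNNGAA, the IL-6 response element core CTGGGA, the HNF1 half-site GTTAAT, the AP-1 site TGANTCA, the hypoxia response core ACGTG and the TATA box TATAAA. STAT3 carries the interleukin-6 signal of the acute phase response, and HNF1 is a factor of hepatocytes and kidney tubules. The Fga and Fgb windows each held a STAT3 match, 234 and 162 bases before the start, a CTGGGA match at 121 and 91 bases and an HNF1 half-site at 43 and 29 bases, on the opposite strand, so that the printed strand reads ATTAAC. The Fgb window also held an AP-1 match at 173 bases. The Fgg window held a CTGGGA match at 13 bases and none of the others. Among 32851 promoter windows of the same length, 7.02% held TTCNNNGAA, 27.0% CTGGGA, 6.43% GTTAAT and 6.75% TGANTCA. The shares were 16.6% for ACGTG and 12.4% for TATAAA, which matched in none of the windows searched here. No searched motif overlapped another in these windows, and a match of letters does not show that a factor binds. RefSeq windows were matched for 6 of the 10 genes, and Vwf, Thbd, Plau and Plat had no window to search.

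Fgg, the gamma chain, had the largest fold change of the 10 genes. Its normalized counts were 33.0, 29.1 and 34.4 in the Control libraries and 368, 1100 and 444 in the knockout libraries. The Control libraries were close to each other and all far below the knockout libraries, among which replicate 2 was the highest. The mean rose from 32.2 ± 2.77 to 637 ± 403 (SD, n = 3), a 19.8-fold difference (log2 fold change 4.31, SE 0.44, DESeq2 adjusted p 9.09e-20, edgeR adjusted p 0.00505). Without TfR1 knockout replicate 2 the log2 fold change was 3.66.

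Fga, the alpha chain, was already present in Control kidneys, with normalized counts of 218, 311 and 209 against 492, 1963 and 569 in knockout kidneys. The groups did not overlap, and the highest knockout library stood 3.99 times above the lowest. The mean was 246 ± 56.5 in Control and 1008 ± 828 in knockout libraries (SD, n = 3), and the 4.10-fold rise passed in DESeq2 (log2 fold change 2.03, SE 0.50, adjusted p 9.84e-04) but not in edgeR (adjusted p 0.0676). It rested in size on replicate 2, since the log2 fold change was 1.11 without that library, where the DESeq2 call remained (adjusted p 8.35e-04).

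Fgb, the beta chain, had normalized counts of 45.3, 64.5 and 71.0 in Control and 54.7, 141 and 56.8 in knockout libraries. Only TfR1 knockout replicate 2 was above the Control range, and the other knockout libraries lay inside it. The log2 fold change was 0.47 (95% interval -0.45 to 1.39, DESeq2 adjusted p 0.551, edgeR adjusted p 0.534) and was -0.11 without that library. The interval includes both a 2-fold rise and no change.

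Levels of different genes were compared per kilobase of the longest coding transcript. In Control kidneys Fga stood at 93.2 ± 21.4 normalized counts per kilobase, Fgb at 36.7 ± 8.13 and Fgg at 18.5 ± 1.59. In knockout kidneys Fga (382 ± 314) and Fgg (366 ± 231) were at like levels, and Fgb stood at 51.1 ± 29.9 (SD, n = 3). Protein was not measured, and these values do not tell how much fibrinogen was assembled.

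Ratios of counts within a library do not depend on the scaling between libraries. The count ratio of Fgg to Fga was 0.153, 0.0949 and 0.167 in Control and 0.748, 0.561 and 0.781 in knockout libraries, a 5.13-fold difference of geometric means. The ratio of Fgb to Fga was 0.210, 0.209 and 0.342 in Control and 0.112, 0.072 and 0.101 in knockout libraries, 2.64-fold lower in the knockout. Neither ratio overlapped between groups. The exact permutation p was 0.1 for each (two-sided, n = 3 against 3), which is the smallest this design allows, and 0.15 after adjustment over 6 ratios. Over the 6 libraries, as a description on log2 values that share the group difference, Pearson's r was 0.906 between Fga and Fgg, 0.784 between Fga and Fgb and 0.531 between Fgb and Fgg.

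Fibrinogen is a product of hepatocytes, and transcripts of most of the hepatocyte genes listed were higher in the knockout group. Of 8 hepatocyte markers, 6 were called higher by DESeq2 (Alb, Ahsg, Apoa1, Apoh, Ttr and Cps1), and 2 by edgeR (Alb and Ahsg, or 4 at an unadjusted p under 0.05). Apoa2 (log2 fold change -0.78, DESeq2 adjusted p 0.231) and Hpx (0.72, DESeq2 adjusted p 0.471) did not pass. The summed normalized counts of the list, of which Ttr made up most, ran from 3325 to 5004 in Control and from 4195 to 15976 in knockout libraries. The lowest knockout sum, in replicate 3, lay inside the Control range. Alb, serum albumin, had 28, 15.5 and 14 normalized counts in Control and 433, 371 and 67.2 in knockout libraries.

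The order of the knockout libraries differed between these genes. Fga and Fgg were highest in TfR1 knockout replicate 2 and lowest in replicate 1, while all 8 hepatocyte markers were lowest in replicate 3. Apoa1, Apoa2 and Ttr were, like Fga and Fgg, highest in replicate 2, and the other 5 markers in replicate 1. In TfR1 knockout replicate 3, where Alb was at 67.2, Ahsg at 15.1, Apoa1 at 19.9 and Apoh at 2.84, Fgg was at 444 and Fga at 569. Of the list, Ahsg, fetuin-A, was at 0 in Control replicate 2 and Cps1, a urea cycle enzyme, at 0 in Control replicate 3. In those libraries Ttr, transthyretin, stood at 3848 and 4815, Apoa2 at 121 and 142, Hpx at 17.3 and 28, and Alb at 15.5 and 14. The part of hepatocyte transcripts in the fibrinogen values was not tested.

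**Figure D2:**
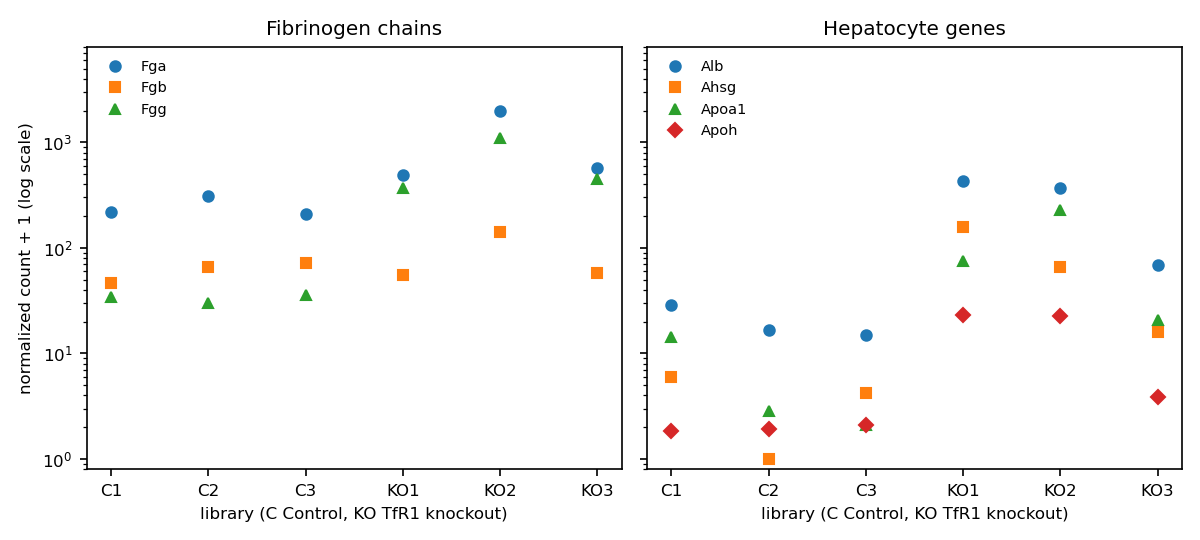
Normalized counts plus 1 (log axis) of the fibrinogen chains (left) and of 4 of the 8 hepatocyte markers (right) in each library. C stands for Control and KO for TfR1 knockout, and the 4 markers shown were all called higher by DESeq2. Points are single libraries. Fga, Fgg and Apoa1 are highest in KO2, Alb, Ahsg and Apoh in KO1, and the 4 hepatocyte genes are lowest among the knockout libraries in KO3.

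By Pearson's r (taken over the 6 libraries with the mean of the z-scored log2 values of the chains, among 12106 genes averaging 100 or more normalized counts), the genes most like the fibrinogen chains were Get4 (0.994), Lpin1 (0.993), Ehmt2 (0.993), Cd9 (0.992) and Rnf4 (0.991). Lpin1, a phosphatidate phosphatase, had 530, 638 and 612 normalized counts in Control and 1037, 4979 and 1126 in knockout libraries. Like Fga it was far higher in TfR1 knockout replicate 2 than elsewhere, and its log2 fold change was 2.00 (SE 0.54, DESeq2 adjusted p 0.00306, edgeR adjusted p 0.0918). The remaining 4 genes changed less, with log2 fold changes of 0.22 to 0.51 that did not pass in DESeq2 (adjusted p 0.054 to 0.366). With 6 libraries of 2 groups such likeness is a description only.

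F3, tissue factor, starts the cascade. Its normalized counts were 402, 414 and 399 in Control and 1249, 1393 and 1089 in knockout libraries. Both groups were tight and far apart, with the lowest knockout library above every Control library. The mean rose from 405 ± 8.0 to 1244 ± 152 (SD, n = 3), which was 3.07-fold (log2 fold change 1.62, SE 0.17, DESeq2 adjusted p 1.23e-18, edgeR adjusted p 0.0027). The log2 fold change stayed between 1.53 and 1.71 when any library was left out, and the call held in each case. F3 lies on chromosome 3 (mm9, 121426455 to 121437970).

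Beside the rise of F3, 5 of 6 tubule injury markers were called higher by DESeq2 (Havcr1, Lcn2, Krt20, Spp1 and Clu) and 4 by edgeR. Summed normalized counts of the 6, of which Spp1 made up most, were 31918 to 39476 in Control and 92847 to 153414 in knockout libraries. Six2Cre does not target the collecting duct, but the study also found Aqp2 in cysts of connecting segments. Counts of Aqp2 therefore need not come from untargeted cells only. Collecting duct markers were called higher for 4 of 6 genes by DESeq2 and 2 by edgeR. Their sums were 9780 to 19482 in Control and 37084 to 64829 in knockout libraries, and Aqp2 was the largest part in each knockout library. Which cells carried the added F3 transcripts was not tested.

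The promoter windows of F3 and of Plaur, whose values follow, are shown because both genes rose and both windows hold the AP-1 motif TGANTCA, which is in 6.75% of all windows. The F3 window (RefSeq, GRCm38.p6, chr3:121723287-121723536, plus strand) held it 146 and 135 bases before the start. The Plaur window (chr7:24462233-24462482, plus strand) held it 69 bases before the start, and no other searched motif matched in either. AP-1 is the Fos and Jun family of factors, and binding was not measured. The Fgb window also held this motif, and Fgb did not pass (log2 fold change 0.47, DESeq2 adjusted p 0.551). The windows of Fga and Fgg, which DESeq2 called higher, did not hold it. As the rise and the motif both guided the choice of windows, a link between them was not tested. The window of F5 held no match of any searched motif.
F3 promoter: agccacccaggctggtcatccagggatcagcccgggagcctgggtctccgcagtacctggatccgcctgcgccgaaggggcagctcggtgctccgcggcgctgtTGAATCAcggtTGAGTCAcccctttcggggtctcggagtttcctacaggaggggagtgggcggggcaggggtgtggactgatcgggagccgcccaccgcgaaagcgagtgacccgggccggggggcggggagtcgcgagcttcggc
Plaur promoter: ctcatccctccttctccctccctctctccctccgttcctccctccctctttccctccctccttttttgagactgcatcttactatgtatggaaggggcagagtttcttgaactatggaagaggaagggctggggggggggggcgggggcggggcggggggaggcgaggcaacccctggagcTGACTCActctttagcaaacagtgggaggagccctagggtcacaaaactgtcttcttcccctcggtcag

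F5, the cofactor that speeds thrombin formation, was the lowest of the 10 genes per kilobase in both groups (5.55 ± 1.08 and 10 ± 6.06 normalized counts per kilobase, SD, n = 3). Its normalized counts were 49.5, 40.9 and 33.4 in Control and 124, 37.1 and 61.5 in knockout libraries. The groups overlapped, with TfR1 knockout replicate 1 high and replicate 2 inside the Control range. The log2 fold change was 0.85 (95% interval -0.14 to 1.84, DESeq2 adjusted p 0.268, edgeR adjusted p 0.297) and was 0.26 without TfR1 knockout replicate 1. An exon of F5 overlaps the antisense gene Gm16548 by 262 bases, and as the strand setting of the counting is not given in the sources used here, some of these reads may belong to that gene.

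Vwf and Thbd are made largely by endothelium, which keeps the transferrin receptor gene in this model. Vwf, which tethers platelets to injured vessel wall, had 276, 220 and 327 normalized counts in Control and 266, 232 and 320 in knockout libraries. The ranges of the groups nearly coincided. Its log2 fold change was -0.01 (95% interval -0.50 to 0.48, DESeq2 adjusted p 0.988), so differences of more than about 0.5 on the log2 scale lay outside the interval. The sign turned with limma-voom and with some omitted libraries.

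Thbd had 1519, 1599 and 2076 normalized counts in Control and 2007, 1375 and 1898 in knockout libraries, which overlapped. Its log2 fold change was 0.02 (95% interval -0.42 to 0.47, DESeq2 adjusted p 0.962) and took the opposite sign with total-count scaling (-0.07). Of 10 endothelial markers, 1 was called higher by DESeq2 (Flt1) and 0 by edgeR (1 at an unadjusted p under 0.05), and their sums overlapped (26360 to 41279 in Control, 28052 to 36888 in knockout). None of the 5 platelet and megakaryocyte markers tested was called by DESeq2 or edgeR (0 at an unadjusted p under 0.05 in either), and their sums were 268 to 409 and 392 to 516.

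The ratio of F3, which starts clotting, to Thbd, which restrains it, was 0.265, 0.259 and 0.193 in Control and 0.622, 1.01 and 0.574 in knockout libraries. All knockout libraries were above all Control libraries, by 3.01-fold in the geometric mean (exact permutation p 0.1, the smallest possible with 3 against 3, adjusted 0.15). The ratio of Vwf to Thbd differed by -0.02 on the log2 scale (exact permutation p 0.9).

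**Figure D3:**
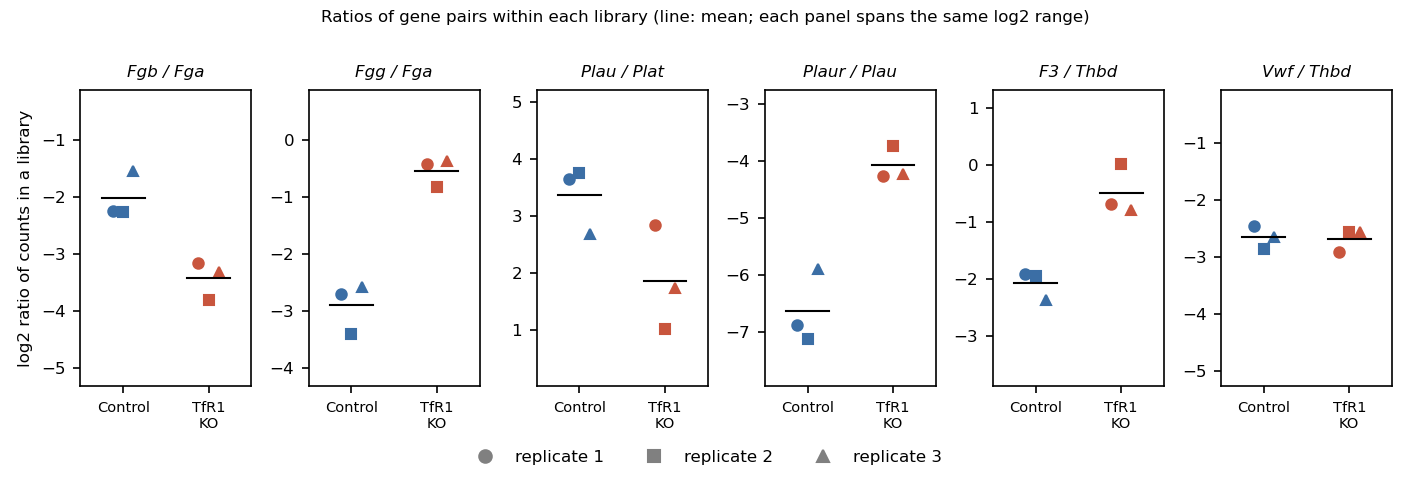
Ratios of counts of 6 gene pairs within each library, on a log2 scale, in 3 Control and 3 TfR1 knockout libraries. Points are libraries and lines are group means. Fgg to Fga, Plaur to Plau and F3 to Thbd are higher in every knockout library, Fgb to Fga is lower in each, and Plau to Plat and Vwf to Thbd overlap.

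Plau, the urokinase-type plasminogen activator, was by far the most abundant of the 10 genes, with 6264 ± 1856 normalized counts per kilobase in Control and 3049 ± 636 in knockout kidneys (SD, n = 3). Its normalized counts were 15955, 18241 and 9833 in Control and 8821, 6641 and 5973 in knockout libraries. The groups did not overlap, but Control replicate 3 was close to TfR1 knockout replicate 1. The mean decreased from 14677 ± 4348 to 7145 ± 1489, 2.05-fold lower (log2 fold change -1.04, SE 0.28, DESeq2 adjusted p 0.00346), which edgeR did not call (adjusted p 0.0662). The DESeq2 call was lost without Control replicate 1 (-0.98, adjusted p 0.0506), without Control replicate 2 (-0.86, 0.0618) or without TfR1 knockout replicate 3 (-0.92, 0.0527). Control replicate 3, the lowest Control library for Plau, was also the lowest Control library for the summed proximal tubule markers, of which 2 of 8 were called lower (Lrp2 and Slc5a2) and 1 higher (Slc22a6) by DESeq2. The part of tubule mass in the Plau values was not tested.

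Plat, the tissue-type activator, is known from endothelium and tubules. It had 1271, 1346 and 1525 normalized counts in Control and 1235, 3282 and 1795 in knockout libraries, and TfR1 knockout replicate 1 was below every Control library. The log2 fold change of 0.61 did not pass (95% interval -0.08 to 1.29, DESeq2 adjusted p 0.248, edgeR adjusted p 0.287). It moved to 0.14 without TfR1 knockout replicate 2 and passed without replicate 1 (0.88, DESeq2 adjusted p 0.0227). The ratio of Plau to Plat was 12.5, 13.5 and 6.44 in Control and 7.14, 2.02 and 3.33 in knockout libraries. These ratios overlapped between groups (log2 difference -1.50, exact permutation p 0.2, adjusted 0.24).

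Plaur, the receptor that holds urokinase at the cell surface, moved opposite to its ligand. It had 134, 130 and 164 normalized counts in Control and 456, 498 and 316 in knockout libraries. The lowest knockout library stood well above the highest Control library. The mean rose from 143 ± 18.3 to 423 ± 95.3 (SD, n = 3), which was 2.97-fold (log2 fold change 1.57, SE 0.26, DESeq2 adjusted p 9.26e-08, edgeR adjusted p 0.0142), and the log2 fold change ranged from 1.44 to 1.75 when single libraries were left out. The ratio of Plaur to Plau, 0.00845, 0.00715 and 0.0167 in Control against 0.0518, 0.075 and 0.053 in knockout libraries, was 5.89-fold higher (exact permutation p 0.1, adjusted 0.15).

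Plaur is expressed by myeloid cells as well as by epithelium. Of 10 macrophage markers, 7 were called higher by DESeq2 and 5 by edgeR, with summed normalized counts of 2784 to 4696 in Control and 7737 to 9954 in knockout libraries. Of 6 neutrophil markers tested, 2 were called higher by DESeq2 (S100a8 and S100a9) and 0 by edgeR (3 at an unadjusted p under 0.05), with sums of 118 to 409 and 332 to 922, and Elane had at most 3 counts in every library. Whether the added Plaur transcripts came from these cells was not tested.

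Ordered by level per kilobase, the Control kidneys ran from F5 (5.55) through Fgg (18.5), Vwf (31.1), Fgb (36.7), Fga (93.2), Plaur (102), F3 (216), Thbd (466) and Plat (546) to Plau (6264). The ranges of mean ± SD overlapped between the neighbours Vwf and Fgb, Fga and Plaur, and Thbd and Plat. The order in knockout kidneys was F5 (10), Vwf (30.8), Fgb (51.1), Plaur (303), Fgg (366), Fga (382), Thbd (473), F3 (663), Plat (831) and Plau (3049). There the ranges overlapped between Vwf and Fgb, between each neighbour from Plaur to Thbd, and between F3 and Plat, while F3 stood above Thbd by more than their SDs.

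A list of 33 other coagulation and fibrinolysis genes was read from the same fit. All were in the files, 28 were tested by DESeq2, and 5 were called higher and 9 lower (4 and 7 by edgeR), with a median log2 fold change of -0.31 over those tested. F9, F11 and F2rl2 had at most 3 counts in every library, and F2 (prothrombin) and F7 were also too low to be tested.

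**Figure D4:**
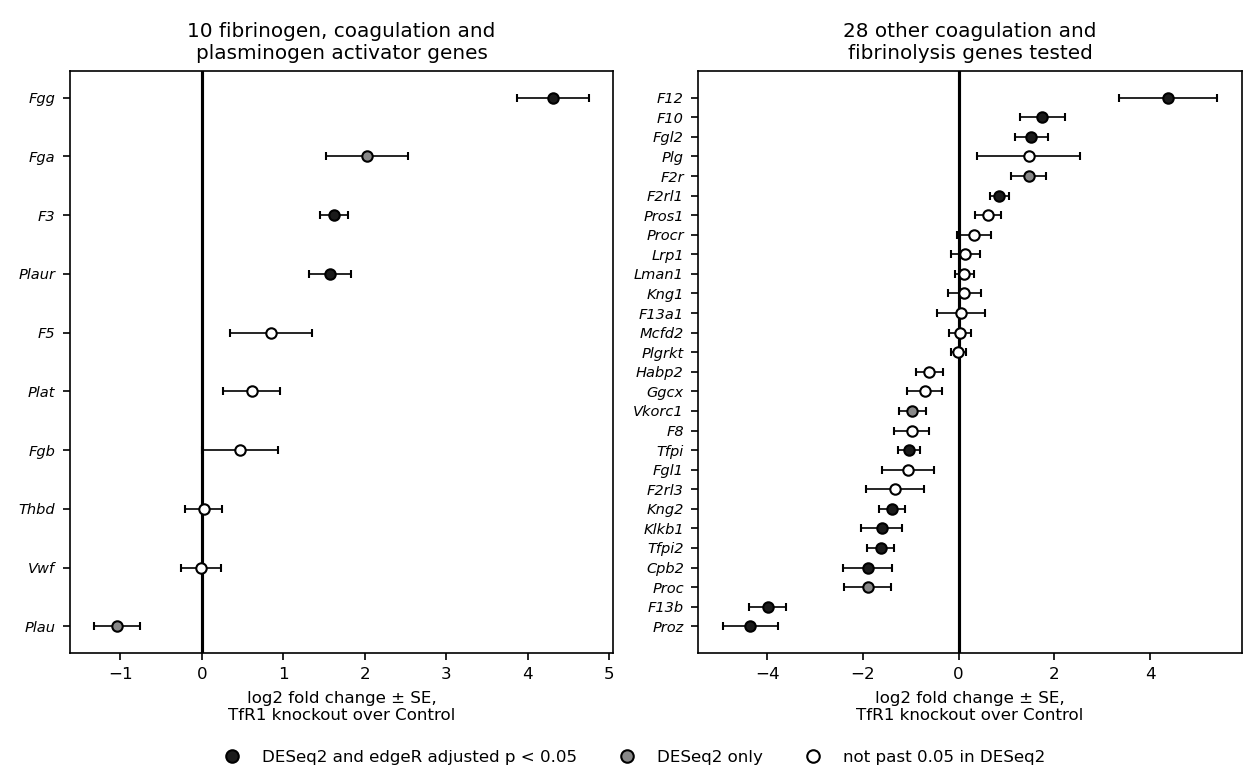
Log2 fold changes (TfR1 knockout over Control, DESeq2) with SE for the 10 genes (left) and the 28 other coagulation and fibrinolysis genes tested (right). Fill gives the tests passed at an adjusted p under 0.05. F12 (4.37) is the highest and Proz (-4.35) the lowest of the other genes.

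Among 14 clotting enzymes and cofactors, 2 of 10 tested were called higher and 4 lower. F13b, the carrier subunit of the fibrin-linking factor XIII, had 2541, 2438 and 2140 normalized counts in Control and 117, 252 and 79.5 in knockout libraries, with no Control library near the knockout range. It fell by 3.99 on the log2 scale (SE 0.39, DESeq2 adjusted p 2.40e-22, edgeR adjusted p 0.00393), and the log2 fold change was -4.59 without TfR1 knockout replicate 2. F13a1, the catalytic subunit, did not pass (0.04, SE 0.50). Kng2, a kininogen, fell from 7647 ± 469 to 2920 ± 974 (log2 fold change -1.39, DESeq2 adjusted p 9.51e-06, edgeR adjusted p 0.0232), while Kng1 did not pass (0.12, SE 0.34). Kng1 and Kng2 are close copies, so how their reads were divided is uncertain. Proz, protein Z, a cofactor in the inhibition of factor Xa, fell from 286 counts summed over the Control libraries to 12. After depth scaling it was 20.9-fold lower (95% exact interval 11.8 to 40.9, for counting error only). Its log2 fold change was -4.35 (95% interval -5.47 to -3.23, DESeq2 adjusted p 3.43e-12, edgeR adjusted p 0.00384).

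The remaining called genes of this group were at low counts. F12, the contact factor that starts the intrinsic pathway, had 5 counts in all Control libraries together and 83 in the knockout libraries. Their ratio after depth scaling was 18.9 (95% exact interval 7.79 to 59.8, for counting error only). The knockout libraries spread over 9.94, 62.7 and 22.7 normalized counts. The log2 fold change of F12 was 4.37 (95% interval 2.36 to 6.37, DESeq2 adjusted p 4.73e-04, edgeR adjusted p 0.0333) and was 3.42 without TfR1 knockout replicate 2. F10, the protease of the prothrombinase complex, was at 13.3 ± 4.47 in Control and rose to 44.6 ± 1.13 in knockout libraries (log2 fold change 1.75, DESeq2 adjusted p 0.00286, edgeR adjusted p 0.0411), a call lost without Control replicate 2. Klkb1, plasma prekallikrein, fell from 51.2 ± 11.7 to 16.9 ± 0.202 (-1.61, DESeq2 adjusted p 0.00315, edgeR adjusted p 0.0359), a call lost without Control replicate 1 or 2. F8, factor VIII, had 194, 166 and 364 normalized counts in Control and 147, 96.0 and 122 in knockout libraries and missed the threshold (-0.98, DESeq2 adjusted p 0.0517, edgeR adjusted p 0.131), and Habp2, a protease that can activate factor VII and urokinase, did too (-0.61, DESeq2 adjusted p 0.141).

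Of 5 anticoagulant genes, 3 were called lower by DESeq2 and 2 by edgeR. Tfpi, the inhibitor of the tissue factor complex, had 816, 682 and 1076 normalized counts in Control and 447, 385 and 428 in knockout libraries. The groups did not overlap, and Tfpi fell where F3 rose (log2 fold change -1.03, SE 0.23, DESeq2 adjusted p 2.07e-04, edgeR adjusted p 0.0291). Tfpi2, a related Kunitz inhibitor of plasmin and other proteases, fell from 271 ± 12 to 87.5 ± 26.8 (-1.63, DESeq2 adjusted p 3.30e-07, edgeR adjusted p 0.0182). Proc, protein C, fell in DESeq2 from 349 ± 102 to 93.4 ± 61.9 (-1.90, adjusted p 0.00156) but not in edgeR (adjusted p 0.0662), and its log2 fold change was -2.57 without TfR1 knockout replicate 1. Pros1, protein S (0.62), and Procr, the endothelial protein C receptor (0.32), did not pass (DESeq2 adjusted p 0.109 and 0.592).

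Of the thrombin receptor family, 3 of 4 genes were tested, and 2 were called higher. The other tested gene, F2rl3, went the opposite way and did not pass (log2 fold change -1.33, DESeq2 adjusted p 0.132, edgeR adjusted p 0.209). Its groups did not overlap, with means of 71.6 ± 38.6 in Control and 28.2 ± 16.7 in knockout libraries (SD). F2r, the receptor PAR1, had 2463, 2271 and 4802 normalized counts in Control and 5346, 11265 and 9662 in knockout libraries. Control replicate 3 was close to the lowest knockout library, and the rise passed in DESeq2 (log2 fold change 1.46, SE 0.37, adjusted p 0.00163) but not in edgeR (adjusted p 0.0652). F2rl1, PAR2, which is cut by trypsin-like proteases and the tissue factor complex, rose from 871 ± 137 to 1573 ± 208 (0.85, DESeq2 adjusted p 6.29e-04, edgeR adjusted p 0.0305). Of the fibrinogen-like genes, Fgl2, a membrane protein with prothrombin-cleaving activity, rose from 413 ± 118 to 1181 ± 406 (1.52, DESeq2 adjusted p 2.18e-04, edgeR adjusted p 0.0387), and Fgl1 did not pass (-1.06, DESeq2 adjusted p 0.192).

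Plasminogen itself was near the floor in kidney RNA, with Plg at 3.11 ± 1.91 normalized counts in Control and 8.57 ± 5.55 in knockout libraries (DESeq2 adjusted p 0.395). Cpb2, the fibrinolysis inhibitor TAFI, fell from 51.6 ± 19.2 to 13.6 ± 4.07 (log2 fold change -1.90, DESeq2 adjusted p 0.00317, edgeR adjusted p 0.0452), a call lost with limma-voom (adjusted p 0.0509) and without Control replicate 3. Plgrkt, a plasminogen receptor (-0.01, SE 0.16), and Lrp1, which clears urokinase complexes (0.14, SE 0.31), did not pass. Of the 4 genes of the vitamin K cycle and factor transport, Vkorc1, vitamin K epoxide reductase, fell in DESeq2 (-0.97, adjusted p 0.00698) but not in edgeR (adjusted p 0.0642) or without Control replicate 1 or TfR1 knockout replicate 3. Ggcx, the vitamin K dependent carboxylase (-0.71), and Lman1 (0.12) and Mcfd2 (0.03), the receptor pair that carries factors V and VIII out of the endoplasmic reticulum, did not pass.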

How the data were processed

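Per the labels, total RNA of 6 kidneys was made into TruSeq libraries, and the study sequenced poly-A RNA in single-end runs. According to the submitters' processing notes and the study's methods, base calls were converted with CASAVA 1.8.2, reads were trimmed with Trimmomatic and aligned to mm9 with TopHat2 2.0.11, uniquely mapped reads were kept, and HTSeq counted them per gene. The HTSeq version, annotation and strand setting are not given in the sources used here. The authors deposited raw counts per gene without normalization, in 6 columns matched to samples by their labels.

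Counts were fitted over all genes with the Wald test of DESeq2 1.42.0 in R 4.3.3 (median-ratio size factors, no covariate, Benjamini-Hochberg adjusted p under 0.05). Independent filtering tuned at 0.05 left 16509 genes, the lowest averaging 3.51 normalized counts, and 29 genes had no p from outlier filtering. Normalized counts are counts divided by size factors, and intervals of fold changes are 95% Wald intervals. edgeR 4.0.16 (quasi-likelihood) stands beside each call because, in counts simulated for 19985 genes with 200 changed, 26.2% of 225 DESeq2 calls were unchanged genes, against 3.85% of 130 edgeR calls. DESeq2 recovered 67% of 2-fold and 99% of 4-fold changes there, and edgeR 33% and 92%. The simulated counts were drawn with dispersions estimated by edgeR, a setting that may favour it. Few genes were changed there, so these false shares need not hold for the kidney data. Other alternatives were limma-voom (limma 3.58.1), other scalings and filters, a 2-fold threshold, a replicate block and leaving out each library. Ratios used log2 of counts plus 0.5 and a two-sided exact permutation test. Exact intervals of F12 and Proz cover counting error only.

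Total counts of 16591156 to 22898008 keep counting error small for abundant genes, so the 3 libraries per group limit precision. No pair of libraries in a group agreed within counting noise (chi-square per degree of freedom 10.6 to 103). Same-numbered libraries did not deviate together (r of -0.0378, 0.0548 and 0.0899), and the numbers were therefore treated as names.

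The genes and lists were chosen with earlier results of these data known. Named were the 10 genes, the pathway genes called by DESeq2 or averaging 100 or more normalized counts, and the 5 genes most like the fibrinogen chains. Plg, Fgl1, F2, F7 and F2rl3 were added after their values were seen. Markers were given as counts and sums, with Alb, Ahsg, Apoa1, Apoa2, Apoh, Ttr, Hpx and Cps1 named to show single libraries.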

Additional observations from a re-analysis of the deposited data

How the results depend on the processing

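Fgg, F3 and Plaur kept their direction and their call under all 15 alternatives. Of 150 alternative fold changes over the 10 genes, 132 kept direction and side of the threshold, 7 lost the call, 1 gained it and 10 turned sign. The 7 losses were Fga with edgeR and limma-voom (2.01 and 1.70) and Plau with edgeR, limma-voom and the omission of Control replicate 1 or 2 or TfR1 knockout replicate 3. The count of genes called lower, 1 with DESeq2, was therefore 0 with edgeR, 0 with limma-voom and 0 to 1 when a library was left out. The count called higher was 3 to 5.

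All sign changes were in genes that passed no test. Leaving out a library gave -0.11 to 0.71 for Fgb, -0.15 to 0.13 for Vwf, -0.08 to 0.18 for Thbd and -0.12 to 0.09 for the ratio of Vwf to Thbd (log2 scale). Vwf was also turned by limma-voom (0.01) and Thbd by total-count scaling (-0.07), under which the median of all genes was -0.0978. With a replicate block 4 genes were called higher and 1 lower, as without it, and 4 and 9 of the pathway genes, with F10 and Klkb1 losing their calls and Habp2 gaining one (-0.65, DESeq2 adjusted p 0.0352). F8 passed with TMM factors (adjusted p 0.0484, DESeq2).

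Over all genes, edgeR called 493 higher and 428 lower and limma-voom 485 and 456, against 1277 and 1186 with DESeq2. Omitting a library moved the DESeq2 counts between 664 and 1531 higher and 575 and 1674 lower. The causes were not tested. Only 3 libraries per group, mean counts under 100 for Fgb and F5 in both groups and the absence of protein data limit these results.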

Other observations

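Markers of cell types not set beside a coagulation gene above were read from the same fit. Of 6 podocyte markers, 1 (Wt1) was called higher by DESeq2 and by edgeR, with summed normalized counts of 10716 to 16744 in Control and 15494 to 18613 in knockout libraries. Of 3 erythroid markers tested, 1 (Slc4a1) was called lower by both, with sums of 3006 to 6249 and 1699 to 6173. The globin genes Hbb-b1, Hbb-b2, Hba-a1 and Hba-a2 had at most 3 counts in every library, while Alas2, on the same list, stood at 1222 to 5399 normalized counts. Only uniquely mapped reads were kept, and whether globin RNA was present cannot be told from these counts.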
